A study of Homo sapiens with 6 samples.

Results

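These data concern 395 stretches of the human genome at which RNA was crosslinked to the chaperone HSPA1A in both replicates, but to its close relative HSPA8 in at most 1. They were selected on the measured presence of peaks. The peaks of 4 deposited lists, 2 for each chaperone, were pooled, and peaks sharing at least 1 base on the same strand were merged into 4136 regions on the 25 chromosomes (1 to 22, X, Y and MT). Of these regions, 1043 held a peak from both HSPA1A lists. Those 1043 fell into 648 that also held a peak from both HSPA8 lists and the 395 that did not, called members below. Since presence in the 4 lists made this choice, every value here is a description of the 4 lists, with no test of a difference between the chaperones.

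The study used FLASH-seq, in which ultraviolet light links RNA to protein in living cells, the protein is purified, and the attached RNA fragments are sequenced. The cells were HEK293 Flp-In T-Rex, an established embryonic kidney line in which an added gene sits at a single chosen site and is switched on by tetracycline, given here at 1 µg/ml. The 6 libraries covered 3 baits, GFP, HSPA1A and HSPA8, with 2 biological replicates each, and every bait carried the same 3xFLAG-HBH tag for purification. The cells keep their own genes for both chaperones, and the bait is an added, tagged copy. The 2 libraries of GFP are not analysed here, and background crosslinking to a control bait is therefore not given beside any value.

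HSPA1A and HSPA8 are 70-kilodalton heat shock proteins, ATP-driven chaperones that bind exposed stretches of unfolded protein. HSPA1A is the form induced by heat and other stress, and HSPA8 is the form that cells make all the time. Many regions described below lie on genes read by RNA polymerase III, which makes tRNAs, 5S rRNA, the U6 and 7SK RNAs and the signal recognition particle RNA 7SL. tRNA genes carry their promoter inside the transcribed part, as an A box and a B box, and the RNA is trimmed at both ends before it is used. Others lie on U1, the small nuclear RNA that recognises the start of an intron, and on its many gene copies and variants.

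A phenylalanine tRNA gene shows a member confined to the 3′ part of the gene, where all 6 members on this tRNA lay. Of the 83 tRNA members, 25 began as late as position 30. TRF-GAA1-5 lies on the minus strand of chromosome 13, and the RefSeq sequence of GRCh38.p14 at chr13:94549647-94549722 is given 5′ to 3′ with the bases of the member region in capitals.
TRF-GAA1-5: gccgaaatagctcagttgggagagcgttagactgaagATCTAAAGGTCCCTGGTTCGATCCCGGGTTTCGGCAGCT
The gene is 73 bases long, and the region ran from position 38 to position 76, so it began just after the anticodon at positions 34 to 36 and ended 3 bases past the gene. It held the letters GGTTCGA at positions 52 to 58, the core of the B box. Of 35116 RefSeq windows of 300 bases around gene starts, 302 hold these letters on either strand, or 0.860%. The peak scores there were 10 and 6 in the HSPA1A replicates and 8 in HSPA8 replicate 1, and HSPA8 replicate 2 had no peak.

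A second sequence shows how a member can carry more than 1 name. The region at chr1:632614-632656 on the minus strand lies on the microRNA gene MIR12136, which sits in a nuclear copy of mitochondrial DNA. Its RefSeq hairpin, at chr1:632615-632685 of GRCh38.p14, is given 5′ to 3′ with the bases inside the region in capitals.
MIR12136 hairpin: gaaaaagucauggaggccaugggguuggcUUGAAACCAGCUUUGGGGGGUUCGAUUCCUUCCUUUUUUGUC
The region covered positions 30 to 71 of the 71, and 0 of the 18 bases of the mature microRNA. It was 43 bp wide with scores of 13 and 5 for HSPA1A and 16 for HSPA8 replicate 1. The member on the mitochondrial serine tRNA gene TRNS1, at MT:7443-7485 on the minus strand, had the same width and the same 3 scores. The peaks do not show from which of these places the RNA came.

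The members made up 37.9% of the 1043 regions in both HSPA1A lists (95% Wilson interval 35.0 to 40.9, which covers counting error over regions alone). With the baits exchanged, 722 regions were in both HSPA8 lists and 74 of them, or 10.2% (8.24 to 12.7), were in at most 1 HSPA1A list. The HSPA8 lists were of unequal length. On the 25 chromosomes the HSPA1A lists held 2744 and 2059 peaks and the HSPA8 lists 2778 and 1423. HSPA8 replicate 2, the shortest list, also placed 617 further peaks on unplaced scaffolds, HSPA8 replicate 1 placed 353 there, and the HSPA1A lists placed 0. The part of list length and of scaffold placement in the choice of members was not tested. Taking the 1423 best-scoring peaks of each list left 153 members, or 21.5% of the regions in both HSPA1A lists.

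Most members were not free of HSPA8. Of the 395, 202 held a peak from HSPA8 replicate 1, 97 held one from HSPA8 replicate 2, and 96 held none. With HSPA8 judged on replicate 1 alone, 193 regions would be members, and on replicate 2 alone, 298. Both HSPA1A lists took part in every member by construction: 15.4% of the peaks of HSPA1A replicate 1 and 19.5% of those of replicate 2 lay in members. The corresponding shares in the HSPA8 lists were 8.14% and 6.82%.

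Every deposited peak carries a whole-number score whose meaning is not stated, so scores were compared within a list and not between lists. Members scored below the regions in all 4 lists. In HSPA1A replicate 1 their median score was 10, with an interquartile range of 7 to 16 and extremes of 4 and 263, against a median of 104 at regions in all 4 lists. In replicate 2 it was 8, with an interquartile range of 6 to 15 and extremes of 1 and 214, against 41. Set against whole lists, the members' median percentile rank was 50.3 in replicate 1, the middle of that list, and 32.3 in replicate 2. Members with no HSPA8 peak had medians of 6 and 7 and highest values of 21 and 32. In replicate 1 that median was the lowest of the 3 kinds of member, and in replicate 2 members shared with HSPA8 replicate 1 had the same median of 7. Members were also narrower, with a median width of 47 bp and a range of 18 to 675 bp, against a median of 66 bp at regions in all 4 lists, whose width includes more merged peaks. The HSPA1A peaks themselves had median widths of 40 and 37 bp in members and 56 and 46.5 bp in regions in all 4 lists.

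The 2 kinds of singly supported member differed in which HSPA1A list ranked them higher. Those shared with HSPA8 replicate 1 had a median percentile rank of 57.5 in HSPA1A replicate 1 and 26.5 in HSPA1A replicate 2. Those shared with HSPA8 replicate 2 had 46.5 and 63.6 in the same order. Replicate numbers were therefore mirrored across baits, with a first replicate ranking high where the other first replicate had a peak. Over the 395 members the log2 scores of the HSPA1A lists had a Pearson correlation of 0.02, and over the 648 regions in all 4 lists one of 0.77. The points share transcripts, and members lie within a narrow range of scores.

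**Figure D1:**
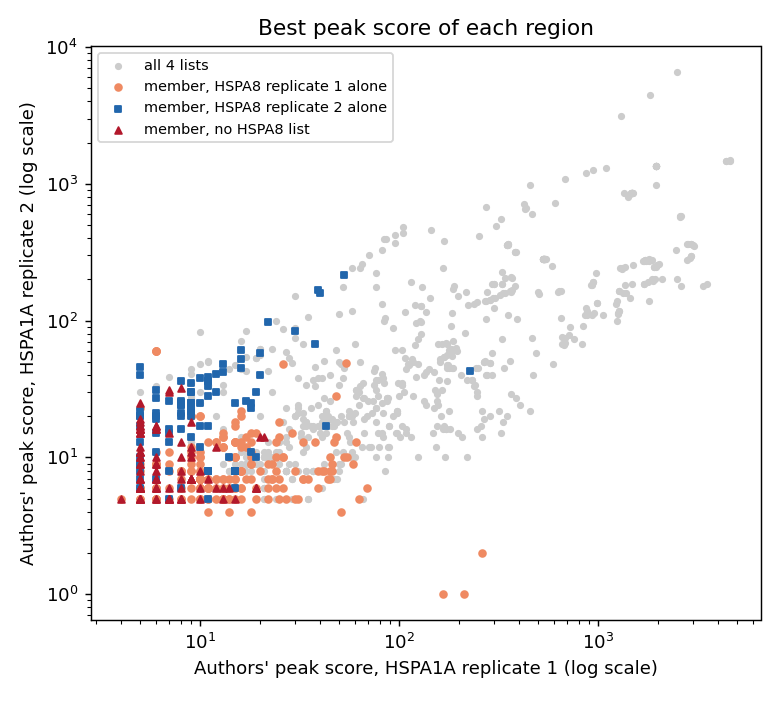
Best authors' peak score of each region in HSPA1A replicate 1 (x axis) and replicate 2 (y axis), both on log scales without units, with 1 point per region in both lists. Grey points are the 648 regions in all 4 lists and coloured points the 395 members by HSPA8 support. Members shared with HSPA8 replicate 1 lie below and to the right of those shared with replicate 2, and 3 of them have scores above 160 in replicate 1 and of 1 or 2 in replicate 2.

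The share of members fell with the score. Regions were placed in 4 steps of their mean percentile rank over both HSPA1A lists. In the lowest step, 50 of 53 were members (94.3%), then 215 of 266 (80.8%), 122 of 378 (32.3%) and, in the highest, 8 of 346 (2.31%). The same order held for regions outside tRNA genes, with 93.0%, 80.9%, 26.9% and 2.11%.

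The highest mean ranks among the 96 members with no HSPA8 peak belonged to tRNA genes. TRN-GTT2-4 and TRN-GTT2-2, copies of an asparagine tRNA, scored 21 and 14, and 20 and 14, in HSPA1A replicates 1 and 2. The glutamate tRNA genes TRE-TTC1-1 and TRE-TTC1-2 scored 8 and 32, and 7 and 31. The cell adhesion gene CDH18 followed with 7 and 30 at chr5:20555409-20555457, and then SLC35F4 with 9 and 18 at chr14:57608788-57608811, on the strand opposite to the gene. The percentile ranks of these sites ran from 38.0 to 65.9 in HSPA1A replicate 1 and from 51.5 to 69.5 in replicate 2. Their scores lay below the medians of 104 and 41 at regions in all 4 lists. That no HSPA8 peak overlaps them follows from how the group was defined.
Next in rank among the members without HSPA8 were sites that included TRK-TTT1-1 (12 and 12), TRL-AAG4-1 (9 and 12), RPPH1 (8 and 13), RNVU1-17 (9 and 10) and the U1 pseudogene RNU1-22P (8 and 10). Intergenic ones lay at chr7:22799287-22799343 (7 and 15), chr7:125702284-125702330 (9 and 11) and chr10:85361586-85361637 (6 and 17). LOC124906269, a long non-coding RNA gene, scored 6 and 17 on the strand opposite to the gene. The near-identical genes RGPD5 and RGPD6 scored 6 and 16 each. The U6 pseudogenes RNU6-1072P, RNU6-771P and RNU6-761P completed the group, the last with 19 and 6.

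Members with 1 HSPA8 list reached higher. RNVU1-22, a variant U1 copy annotated as a pseudogene, at chr1:148263584-148263608, scored 53 and 214 for HSPA1A and 109 in HSPA8 replicate 2. RNU1-32P, a U1 pseudogene at chr2:60384721-60384745, scored 39, 168 and 62 in the same lists. RNA28SN2, a copy of the gene for 28S rRNA of the large ribosomal subunit, scored 228, 43 and 30 at chr21:8218706-8218767. RNVU1-8 scored 30, 84 and 27, RNVU1-34 scored 22, 98 and 41, and RNU1-148P scored 40, 159 and 60. An intergenic site at chr19:44592322-44592350 scored 38, 67 and 30, and RBFOX1, the gene of a neuronal splicing regulator, scored 20, 58 and 19 at chr16:6350440-6350498. In each of these the missing list was HSPA8 replicate 1, and 5 of the 8 sites lie on genes of the U1 family.
The remaining entries of high rank were tRNA genes that lacked HSPA8 replicate 2. TRE-TTC2-1 scored 54 and 49 for HSPA1A and 19 in HSPA8 replicate 1, and a region on TRE-TTC2-2 scored 26, 48 and 7.

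By gene class, Pol III genes held the largest number of members after other non-coding genes, and their share was above that of all classes. Of 159 Pol III regions in both HSPA1A lists, 97 were members, 61.0% (53.3 to 68.2), against the 37.9% of all regions. Mitochondrial genes had 11 of 18, 61.1%, with a wide interval of 38.6 to 79.7. Protein-coding genes had 63 of 134 (47.0%, 38.8 to 55.4), small nucleolar RNA genes 9 of 21 (42.9%), intergenic regions 62 of 152 (40.8%) and other non-coding genes 144 of 378 (38.1%), and of these 4 intervals that of protein-coding genes lies just above 37.9% and the others include it. Spliceosomal RNA genes had 6 of 56 (10.7%, 5.00 to 21.5) and rRNA genes of the 45S unit 3 of 125 (2.40%, 0.820 to 6.82). Pol III genes thus took up 24.6% of the members and 9.57% of the regions in all 4 lists, while rRNA took up 0.759% and 18.8%.

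**Figure D2:**
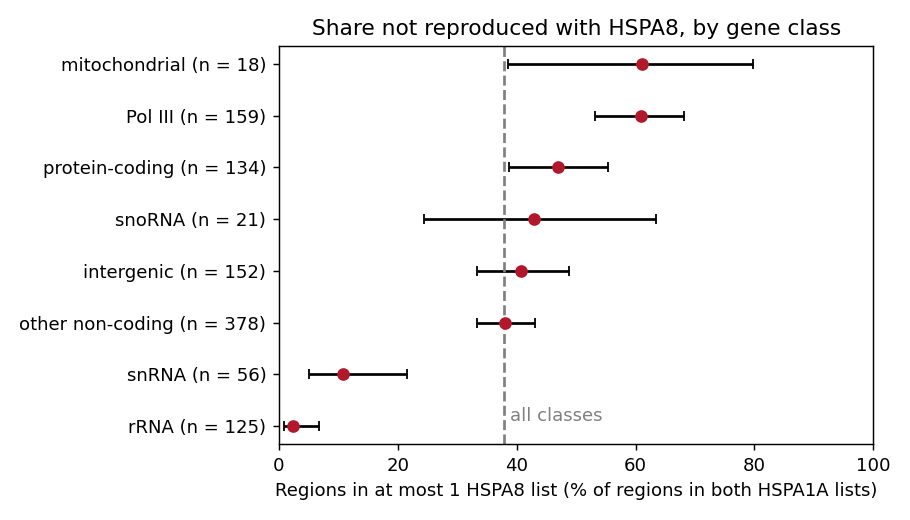
Share of the regions in both HSPA1A lists that were in at most 1 HSPA8 list (x axis, percent), by gene class, with 95% Wilson intervals as bars and the number of regions in brackets. The dashed line is the 37.9% of all classes, and the intervals of Pol III (61.0%), mitochondrial and protein-coding genes lie to its right and those of snRNA and rRNA to its left.

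Within the Pol III class the members were tRNA and snaR genes above all. Nuclear tRNA genes gave 83 members of 116 regions (71.6%, 62.8 to 79.0). snaR genes, which encode small non-coding RNAs found in copies on chromosome 19, gave 10 of 10. By contrast 5S rRNA gave 0 of 18 (Wilson upper bound 17.6%), U6 0 of 5 (upper bound 43.4%) and 7SK 0 of 1. Most 5S regions had nearly the same scores as each other, and the 10 snaR regions had the same width and scores. The 5S and snaR counts are therefore not of independent sites, and the 5S bound treats them as such. U6 and 7SK had too few regions to tell from the 37.9%. The 7SL gene RN7SL3 had a member with scores of 6 and 5 for HSPA1A and 24 in HSPA8 replicate 1, and the other 7SL regions were in all 4 lists. The vault RNA gene VTRNA1-2, whose RNA is part of the vault particle, had a member at chr5:140718934-140719011 with scores of 9 and 7 and no HSPA8 peak. None of the 4 Y RNA genes and not the BC200 gene had a region in both HSPA1A lists.
RPPH1, the RNA of the ribonuclease P enzyme that trims the 5′ end of tRNAs, carried 2 members that touch without overlapping. The one at chr14:20343071-20343166 scored 15 and 17 for HSPA1A and 10 in HSPA8 replicate 1. The one at chr14:20343167-20343241 scored 8 and 13 and had no HSPA8 peak, although HSPA8 peaks of replicates 1 and 2 lay within 6 and 9 bp of it. RPPH1 also had a region in all 4 lists.

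**Figure D3:**
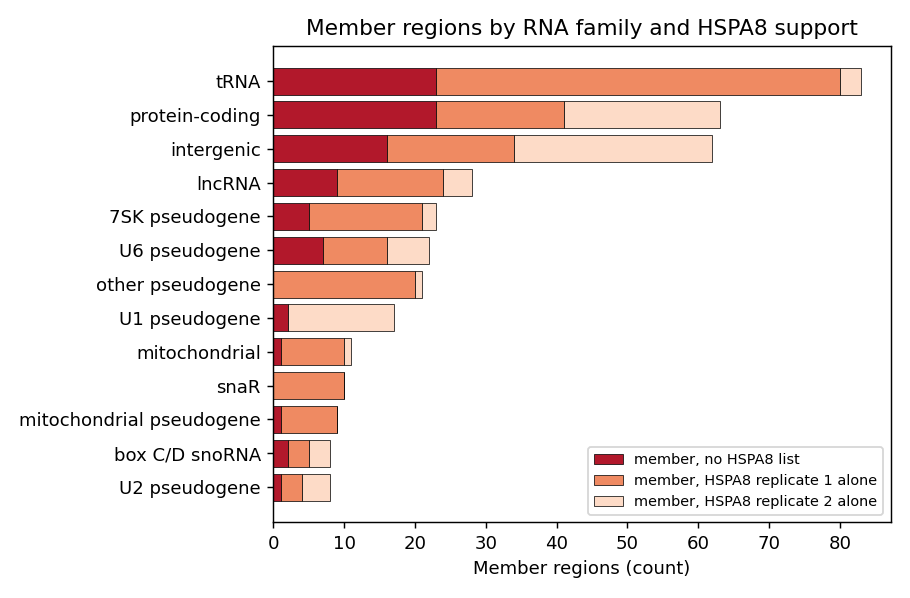
Number of members (x axis, count of regions) for the RNA families with 8 or more, coloured by HSPA8 support. The 83 tRNA members are mostly shared with HSPA8 replicate 1 (57) and the 17 U1 pseudogene members mostly with replicate 2 (15).

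HSPA8 support differed between families in these lists. Of the 83 tRNA members, 57 were shared with HSPA8 replicate 1, 3 with replicate 2, and 23 with neither. All 10 snaR members, 9 of 11 mitochondrial ones and 8 of 9 on nuclear copies of mitochondrial genes were shared with replicate 1. Of the 23 members on 7SK pseudogenes, 16 were shared with replicate 1 and 2 with replicate 2. U1 ran the other way: of 17 members on U1 pseudogenes and variants, 15 were shared with replicate 2 and 0 with replicate 1, and of 4 on U1 genes, 2 and 0. The tRNA share rests on HSPA8 replicate 2 for this reason. Judged against replicate 1 alone, 26 of the 116 tRNA regions were members (22.4%, against 18.5% of all regions), and against replicate 2 alone, 80 (69.0%, against 28.6%). With the 1423 best-scoring peaks of each list, 36 of 62 tRNA regions were members, 58.1%, against 21.5% of all.

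tRNA regions stood above other regions of like score in the middle of the range. Between percentile ranks 50 and 75, 31 of 40 tRNA regions were members (77.5%, 62.5 to 87.7), against 91 of 338 other regions (26.9%, 22.5 to 31.9). Between 25 and 50 the shares were 80.4% and 80.9%, and above 75 they were 6.67% (1 of 15) and 2.11%. Copies of the same tRNA count separately here, so the tRNA interval treats them as independent sites, which they are not. The shares by rank use both HSPA8 lists and were not computed for each list. Over all ranks, replicate 1 alone gave 22.4% of tRNA regions, against 18.5% of all regions.

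tRNA genes come in sets whose mature RNAs are identical. Each set encodes 1 isodecoder, which is 1 of the different tRNA sequences that can share an anticodon. Copies of a set are therefore not independent sites. The RefSeq table holds 443 nuclear tRNA entries with 429 distinct symbols. Of these genes, 238 had a region of any kind, 115 had one in both HSPA1A lists, 82 had a member, and 33 had one in all 4 lists. No tRNA gene had both. The amino acids divided sharply. Glutamate (15 of 15), glutamine (16 of 16), initiator methionine (8 of 8), phenylalanine (6 of 6), arginine (3 of 3), serine (3 of 3) and histidine (2 of 2) had members alone among their regions in both HSPA1A lists. Aspartate had 13 regions and all 13 were in all 4 lists. Lysine (12 of 15), glycine (10 of 15), leucine (4 of 8) and asparagine (2 of 9) were mixed, and alanine and threonine had 1 member each.

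**Figure D4:**
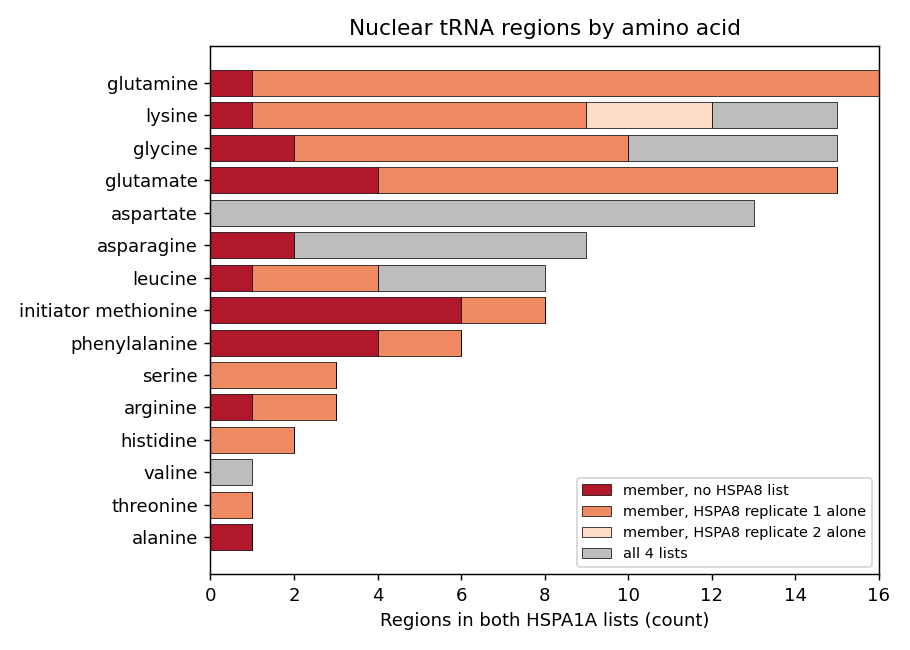
Nuclear tRNA regions in both HSPA1A lists (x axis, count) by amino acid, coloured by HSPA8 support. Glutamine (16), glutamate (15), initiator methionine (8) and phenylalanine (6) consist of members, and the 13 aspartate regions are all grey, present in all 4 lists.

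The glutamate and glutamine members were the most numerous. All 8 TRE-CTC regions were shared with HSPA8 replicate 1, with scores of 9 to 16 and 13 to 22 in the HSPA1A replicates and 14 to 37 in HSPA8 replicate 1. All 11 TRQ-CTG regions had the same pattern, with 13 to 19, 12 to 15 and 15 to 27. Of 7 TRE-TTC regions, 4 had no HSPA8 peak, and of 5 TRQ-TTG regions, 1 had none. HSPA8 replicate 2 had no region on any glutamate or glutamine tRNA gene.

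Initiator methionine tRNA, which starts every protein chain, had members at all 8 copies found. The copies TRX-CAT1-2, TRX-CAT1-3, TRX-CAT1-4, TRX-CAT1-6, TRX-CAT1-7 and TRX-CAT1-8 had regions of the same width, 51 bp, at the same positions, 23 to 73 of a 72-base gene, with the same scores of 9 and 7 and no HSPA8 peak. An example is TRX-CAT1-2 at chr6:26286548-26286598. The other copies were shared with HSPA8 replicate 1: TRX-CAT1-1 scored 14, 7 and 16, and TRX-CAT1-5 scored 12, 7 and 12. All 8 copies carry 1 mature sequence by their names, so HSPA8 replicate 1 had a peak on this RNA at 2 of its 8 genes.

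The phenylalanine members all lay in the 3′ part of the gene. The 6 TRF-GAA1 regions started at position 37 or 38 and ended at 73 to 76, as in the sequence printed above. TRF-GAA1-1, TRF-GAA1-2, TRF-GAA1-3 and TRF-GAA1-6 had no HSPA8 peak and scored 5 in HSPA1A replicate 1 and 5 or 6 in replicate 2. TRF-GAA1-4 scored 13 and 7, with 8 in HSPA8 replicate 1. The 2 copies with an HSPA8 peak thus also had the higher HSPA1A replicate 1 scores.

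Lysine tRNAs held all 3 members shared with HSPA8 replicate 2. TRK-TTT3-1, TRK-TTT3-3 and TRK-TTT3-4 each scored 11 and 8 for HSPA1A and 6 in HSPA8 replicate 2, at positions 36 to 73. The copies TRK-TTT3-2 and TRK-TTT3-5 of the same isodecoder were in all 4 lists, with HSPA1A scores of 17 and 9, and of 28 and 16. All 6 TRK-CTT regions were members shared with HSPA8 replicate 1, with scores of 13 to 18 and 5 to 11.
Asparagine tRNAs divided in the same way between copies. TRN-GTT2-2 and TRN-GTT2-4 ended at position 74, the last base of the gene, and had no HSPA8 peak. The other 7 regions, TRN-GTT2-1 with 56 and 20 among them, ended past the gene, HSPA8 peaks included, and were in all 4 lists. The 7 scored between 56 and 104 in HSPA1A replicate 1, above the 20 and 21 of the members.
Glycine had 6 members of 11 TRG-GCC regions, with scores of 6 to 8 and 6 to 7, and 4 of 4 TRG-TCC regions, all scoring 6 and 9 with 16 in HSPA8 replicate 1. Leucine had 2 of 6 TRL-AAG regions and 1 each on TRL-CAA and TRL-TAG. The remaining anticodon groups with members were TRR-CCT (3), TRS-AGA (3), TRH-GTG (2), TRT-AGT (1) and TRA-AGC (1).

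Taken by isodecoder, fewer tRNAs lacked HSPA8. The 83 members belonged to 36 isodecoders, and for 29 of these HSPA8 replicate 1 had a region on some copy. HSPA8 replicate 2 had one for 2 of them, TRK-TTT3 and TRN-GTT2. The 23 members with no HSPA8 peak belonged to 11 isodecoders. For 4 of these HSPA8 replicate 1 had a region on another copy, and 7 had none in either HSPA8 list: TRA-AGC3, TRE-TTC1, TRE-TTC4, TRK-TTT1, TRL-AAG4, TRQ-TTG2 and TRR-CCT1.

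The median start on a tRNA gene was nearly the same in members and in regions in all 4 lists once the HSPA8 peaks merged into them were set aside. Positions were counted from 1 at the 5′ end of the gene on the strand of the peak. For whole merged regions the median first base was position 20 in members and 7 in regions in all 4 lists. HSPA8 peaks can only extend a region, so the count was repeated on the HSPA1A peaks alone, an alternative chosen after seeing the data. The median first base was then 22 and 21, and the median width 45 and 55 bp.
Starts near the 5′ end still differed in number, with overlapping intervals. On the HSPA1A peaks alone, 19 of 83 members began at or before position 10 (22.9%, 15.2 to 33.0), as did 16 of 33 regions in all 4 lists (48.5%, 32.5 to 64.8). Copies of an isodecoder count separately in these intervals. The 33 include 11 copies of TRD-GTC2 and 5 of TRG-GCC1, whose merged regions all began at or before position 10. The 83 include 7 copies of TRE-CTC1 of which the same holds. Starts at position 30 or later numbered 26 of 83 (31.3%) and 8 of 33 (24.2%). The 3′ end, taken as within 5 bases of the gene's last base or beyond, was reached by 58 of 83 members (69.9%) and 28 of 33 regions in all 4 lists (84.8%). The HSPA1A peaks ended 2 to 4 bases past the gene in 24 members, all shared with HSPA8 replicate 1, and in 6 regions in all 4 lists. Mature tRNAs carry an added CCA at this end that is not in the gene, and whether the bases past the gene come from it was not tested.

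**Figure D5:**
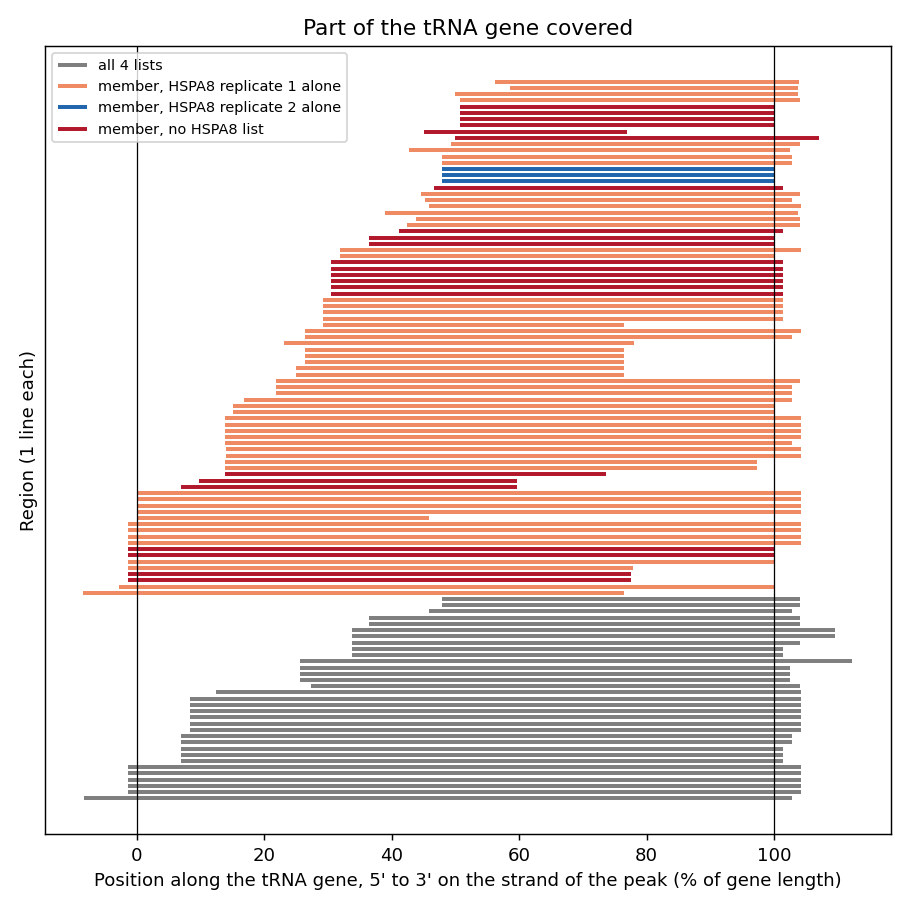
Extent of each nuclear tRNA region in both HSPA1A lists (1 line per region, y axis without scale) along its gene, 5′ to 3′ on the strand of the peak, in percent of gene length (x axis). Black lines mark the gene's ends, and colours give HSPA8 support. Extents include merged HSPA8 peaks, which lengthen the 33 regions in all 4 lists, in grey. The median first base is 20 in members and 7 in grey regions, and 22 and 21 on the HSPA1A peaks alone.

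The tRNA members were clustered in the genome as tRNA genes are. Chromosome 6 held 30 of them, 28 between 26 and 29 Mb, amid the large histone gene cluster. Chromosome 1 held 21. None of the 92 histone genes listed had a region in both HSPA1A lists, so none could hold a member.

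Some members had the same width and the same scores in every list as others. Most of the larger sets were copies of 1 gene family, and some pairs, such as SNORD74 with an intergenic region, were unrelated sites of low score. There were 31 such sets with 85 regions, the largest holding 10, and counting each set as 1 left 341 distinct members of 395. Among tRNA members, 13 sets with 33 regions left 63 distinct ones. The largest set was snaR: SNAR-A3 to SNAR-A11 and SNAR-A14 had 10 regions of 112 bp, each scoring 10 and 7 for HSPA1A and 14 in HSPA8 replicate 1. How reads matching several places were treated is not given in the sources used here. With each set counted as 1 region, 63 of 90 tRNA regions were members, 70.0%.

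U1 members shared with HSPA8 replicate 2 had median ranks above the middle of both HSPA1A lists. The 4 U1 members with no HSPA8 peak had median percentile ranks of 44.5 and 41.9. The 17 of the U1 family shared with HSPA8 replicate 2 had scores of 5 to 53 (median 18), 10 to 214 (median 25) and, in HSPA8 replicate 2, 6 to 109 (median 14). Their median percentile ranks were 63.8 and 66.0 in the HSPA1A replicates. Intergenic members of the same support had 46.5 and 66.0. The U1 pseudogene RNU1-82P carried 3 such members side by side on chromosome 7. RNVU1-14 scored 19 and 30, with 14 in HSPA8 replicate 2, and RNVU1-15 scored 5 and 12 with no HSPA8 peak. Across the U1 family, 58 regions were in all 4 lists, with median scores of 106 and 159.5 for HSPA1A, above the medians of the members. The ranges overlapped, since those 58 regions scored 16 to 1971 and 6 to 1359.
Other spliceosomal members were few. RNU4ATAC, the U4-like RNA of the minor spliceosome, scored 11 and 5, with 6 in HSPA8 replicate 2. LOC124904122, annotated as a small nuclear RNA, scored 10 and 12, with 11 in HSPA8 replicate 2. U6 pseudogenes had 22 members of 58 regions, 37.9%, the same share as over all regions, and U2 pseudogenes 8 of 33, 24.2% (12.8 to 41.0). Of 34 spliceosomal RNA genes listed, 26 had a region in all 4 lists and 5 had a member.

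Small nucleolar RNAs guide chemical marking of rRNA, and many sit in introns of ribosomal protein genes. Of 357 SNORD genes, 16 had a region in both HSPA1A lists, 8 of them a member and 8 a region in all 4 lists. Of 182 SNORA genes, 3 had such a region and 1, SNORA21, a member. SNORD57 scored 11 and 7, with 7 in HSPA8 replicate 1. The other members were SNORD58A, SNORD100, SNORD42A, SNORD34, SNORD74, SNORD63 and SNORD18A.
These same sites account for all 6 ribosomal protein genes with a member among the 83 listed. RPL4 overlapped SNORD18A (5 and 5, no HSPA8), RPL17 overlapped SNORD58A (10 and 7, with 7 in HSPA8 replicate 1), and RPS12 overlapped SNORD100 (11 and 6, with 5 in HSPA8 replicate 1). RPL23A overlapped SNORD42A, RPL23 overlapped SNORA21 and RPL13A overlapped SNORD34, all 3 shared with HSPA8 replicate 2. None of the 6 had a member outside a small nucleolar RNA.
As a background, 0.695% of the 59702 gene symbols overlapped a member and 1.44% a region in both HSPA1A lists, and 48.2% of the latter genes had a member. Among 62 genes of HSP70, HSP90 and J proteins, HSPA9 and DNAJC3 had a region in both HSPA1A lists, and in both genes it was a member. HSPA9, the mitochondrial HSP70, overlapped SNORD63 (5 and 6, with 9 in HSPA8 replicate 2). DNAJC3, a J protein of the endoplasmic reticulum, had 1 at chr13:95722812-95722839 with scores of 14 and 6 and no HSPA8 peak. Of 70 translation factor genes, 0 had a member and 1 had a region in all 4 lists.

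Mitochondrial members lay mostly on the plus strand. ND2, a subunit of respiratory complex I, had one at MT:5198-5494 with scores of 15 and 10 for HSPA1A and 38 in HSPA8 replicate 1. The widest member of all, 675 bp at MT:7538-8212 across TRND and COX2, scored 23, 7 and 26. A region across ND4L and ND4 at MT:10722-11338 scored 15, 8 and 47. TRNE, the glutamate tRNA on the other strand, scored 31, 5 and 25 at MT:14671-14734. The plus-strand region at MT:15953-16076 began at the end base of TRNT and overlapped TRNP, opposite a minus-strand region in all 4 lists. It scored 12 and 6 with no HSPA8 peak. At these first 4 sites HSPA1A replicate 1 and HSPA8 replicate 1 thus scored above their list medians of 10 and 8. HSPA1A replicate 2 stayed between 5 and 10, below its list median of 13.
The nuclear copies of mitochondrial genes followed the same lines, and reads from them and from the mitochondrion may not be separable. MTRNR2L12 carried 4 members on chromosome 3, with HSPA1A replicate 1 scores of 15, 9, 69 and 35 and replicate 2 scores of 5, 10, 6 and 7.

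Members on protein-coding genes were spread 1 to a gene, with the exception of RBFOX1 and DAZ1 at 2 each. After these, the genes of highest rank were RAPGEF6 (16 and 61, with 20 in HSPA8 replicate 2), FRMD4A (25 and 18, with 17 in HSPA8 replicate 1), PLXNA4 (11 and 36, with 11 in replicate 2) and HFM1 (47 and 13, with 40 in replicate 1). MAP2K4, a stress kinase kinase, scored 18 and 15, with 12 in HSPA8 replicate 1. NGLY1, an enzyme that removes sugars from misfolded proteins, scored 9 and 30, with 14 in HSPA8 replicate 2. SH3KBP1 scored 9, 30 and 8, and PRRG3 scored 8, 36 and 9, with replicate 2 as the HSPA8 list. The members in PLXNA4, NGLY1, SH3KBP1 and PRRG3 lay on the strand opposite to the gene. The 2 DAZ1 members, on chromosome Y, had the same width and scores as a member on DAZ4. The width was 27 bp, and the scores were 6 and 60 for HSPA1A and 5 in HSPA8 replicate 1. The peaks do not show whether the RNA came from any of these places. Of the 63 protein-coding members, 58 lay on a gene whose strand is known, and 36 of these (62.1%, 49.2 to 73.4) were on the gene's own strand. For regions in all 4 lists it was 26 of 53 (49.1%, 36.1 to 62.1), so a messenger RNA cannot be assumed as the source of a member within a gene.

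Members shared with HSPA8 replicate 2 in intergenic and protein-coding sequence often had widths of 50 to 56 bp. Of 28 intergenic ones, 18 (64.3%) did, and of 22 in protein-coding genes, 9 (40.9%) did. Among members with no HSPA8 peak it was 5 of 16 and 8 of 23. Among those shared with HSPA8 replicate 1 the counts were 1 of 18 and 0 of 18, and at regions in all 4 lists 12 of 90 and 10 of 71. The 28 intergenic members scored 5 to 38 (median 9) in HSPA1A replicate 1 and 10 to 67 (median 25) in replicate 2.

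At 3 sites the HSPA1A replicates were far apart, each judged within its own list. The scores lay above the members' upper quartile of 16 in replicate 1 and below their lower quartile of 6 in replicate 2. LOC105370906 at chr15:77618530-77618607 scored 167 in HSPA1A replicate 1, 1 in replicate 2 and 279 in HSPA8 replicate 1. IGF2R, a receptor that carries growth factor and lysosomal enzymes to lysosomes, scored 212, 1 and 349 at chr6:160100727-160100806. The intergenic site at chr12:66057596-66057679 scored 263, 2 and 436. HSPA8 replicate 2 had no peak at these strands. The opposite strand of each of the 3 sites held a region in all 4 lists with far higher scores. Opposite IGF2R the HSPA1A scores were 1824 and 4424 and the HSPA8 scores 991 and 2133, opposite LOC105370906 they were 1311, 3137, 768 and 1536, and opposite the intergenic site 2494, 6560, 1330 and 3014. In all, 17 of the 395 members had a region of any kind on the opposite strand, and 6 had one in all 4 lists. The 3 sites were singled out after their values were seen.

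Some members lay close to HSPA8 peaks. Of the 395, 15 had a peak from a missing HSPA8 list within 10 bp on the same strand, 42 within 50 bp and 86 within 1000 bp. RN7SKP180 and RNU5E-4P were nearest, 3 bp from a peak of HSPA8 replicate 1. Just on the other side of the rule, 0 of the 648 regions in all 4 lists owed their place to an overlap of 10 bp or less between the baits, and the median of the smallest overlap was 48 bp. RNU1-98P had the smallest, 20 bp, with scores of 76 and 45 for HSPA1A and 19 and 41 for HSPA8.
At the level of genes the separation was weaker. The 333 members inside genes lay in 306 genes, of which 47 had regions from both HSPA8 lists somewhere on the gene, 141 from replicate 1 alone, 51 from replicate 2 alone and 67 from neither. Of the 80 genes with a member that had no HSPA8 peak, 7 had both HSPA8 lists elsewhere, 6 had replicate 1 and 67 had neither.

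Few members touched the RefSeq windows of 300 bases around gene starts. There were 35116 windows and 59716 RefSeq genes, so not every gene has one. The 83 tRNA members lie on short genes and so near the starts of those genes. The count is therefore not a measure of distance from gene starts. Only 2 of the 395 members (0.506%) touched a window, against 10 of 648 regions in all 4 lists (1.54%). One was TRF-GAA1-5, inside the window of LOC124903191. The other was SCML1 at chrX:17737417-17737448, with scores of 18 and 7 for HSPA1A and 6 in HSPA8 replicate 1.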

How the data were processed

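Per the labels' protocols, RNA crosslinked to tagged HSPA1A or HSPA8 was purified, trimmed with RNase I and sequenced, with random tags to merge PCR duplicates. The submitters' processing notes name GRCh38, Trim Galore 0.4.4, FastQC, STAR 2.6.0b and deepTools, without roles. The peak caller, its threshold and read depth are not given in the sources used here. The authors deposited 1 peak list per replicate, with a whole-number score per peak of unstated meaning. Scores were used within a list, except that the section on processing averaged the 2 HSPA1A scores of each member. Peaks were merged as described in the report. A region was assigned by any overlap, ignoring strand, to 1 class, ranked Pol III first, then mitochondrial, rRNA, spliceosomal, nucleolar, remaining non-coding and protein-coding, and then to the shortest gene, among 59716 RefSeq genes of GRCh38.p14. A percentile rank is a score's place among its list's scores. Genes named were the 20 highest-ranked members without HSPA8, the 10 with 1 HSPA8 list, each tRNA anticodon, other Pol III, snoRNA and snRNA gene, the 10 leading protein-coding genes, and members of fixed lists; the mitochondrial, pseudogene and nearest sites were added after their values were seen. The members and lists were chosen with earlier results of these data known. Shares have 95% Wilson intervals, regions are not replicates, and nothing was tested. On 600 simulated regions, all 300 set as members were recovered. The simulated peaks of a region always overlapped and the regions never touched. This checks the code alone and not how touching or nearby peaks are handled. Python 3.11.15, pandas 2.3.3 and scipy 1.17.1 were used.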

Additional observations from a re-analysis of the deposited data

Results flagged for a closer look

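Peaks on unplaced scaffolds lie outside the 25 chromosomes used and were found in the HSPA8 lists, with 353 in replicate 1 and 617 in replicate 2, against 0 and 0 in the HSPA1A lists. Of these, 329 and 609 lay on the scaffolds that carry copies of the ribosomal DNA. They entered no region.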

How the results depend on the processing

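Of 58 values recomputed under alternatives, 37 stayed close to the main value and 21 moved. The main values were 395 members, 37.87% of regions in both HSPA1A lists, and 96 members without HSPA8. Of the members, 21.01% lay on tRNA genes and 15.95% on protein-coding genes, and the median score was 11. The median scores in this section are over the mean of each member's 2 HSPA1A scores, which mixes lists. Within HSPA1A replicates 1 and 2 the medians were 10 and 8. With peaks at or above their list's median score there were 182 members (31.33%), 37 without HSPA8, 17.03% on tRNA genes and a median score of 29.5. With equal numbers of peaks there were 153 members (21.49%), 12 without HSPA8 and a median score of 19.5. Joining peaks up to 50 bp apart gave 43.11%, leaving out rRNA, 5S and mitochondrial genes 43.2%, and requiring a reciprocal overlap a median score of 13. Same-strand assignment gave 11.14% on protein-coding genes. Leaving out 1 HSPA8 replicate gave 193 to 298 members, 18.5% to 28.57%, with as many without HSPA8, 13.47% to 26.85% on tRNA genes and 13.76% to 23.32% on protein-coding genes; the lower tRNA share was without HSPA8 replicate 2. Counting each set of identical width and scores once, chosen after seeing the data, left 341 members (35.19%) and 79 without HSPA8. Other causes were not tested. Leaving out an HSPA1A replicate gives no value, since the choice needs both. No paired analysis was possible because the results come from no test. Read depth is unknown.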
